A study of Mus musculus with 7 samples.

Results

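The genes described here are 8 genes of heme synthesis and of red blood cells, read in liver with and without *Rbpj*: *Alas1*, *Alas2*, *Alad*, *Fech*, *Klf1*, *Gata1*, *Slc4a1* and *Hba-a1*. They were chosen by name among the 35715 gene names of the array, and 10 of its 55681 probes carry these names. RNA of whole liver came from 7 untreated C57BL/6J mice that were 4 weeks old. Each animal had an array of its own, and no pooling of animals is stated. The 4 Rbpj+/+ animals (+/+_1155, +/+_1156, +/+_1024 and +/+_991) were AlfpCre- Rbpj flox/flox and had no cholestasis. The 3 Rbpj-/- animals (-/-_N3, -/-_N5 and -/-_2866) were AlfpCre+ Rbpj flox/flox, and their livers were cholestatic. The authors also report necrosis, infiltrating immune cells, fibrosis and a low body weight in Rbpj-/- mice of this age. Loss of *Rbpj*, the Cre itself, cholestasis and these other states cannot be told apart. Both groups carry the floxed alleles, and AlfpCre is a liver-specific Cre that acts from early embryonic life in the precursors of hepatocytes and bile duct cells.

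Heme is made in a chain of enzyme steps that starts and ends in the mitochondrion. The first step, the joining of glycine and succinyl-CoA to 5-aminolevulinic acid, sets the pace and is run by ALAS1 in most tissues, with liver among the largest users, and by ALAS2 in developing red cells. ALAD joins 2 molecules of 5-aminolevulinic acid, and FECH puts iron into the finished ring. Red cell precursors need GATA1 and KLF1, transcription factors that switch on *Alas2*, the globins and the anion exchanger of the red cell membrane encoded by *Slc4a1*, while *Hba-a1* encodes the alpha chain of adult hemoglobin. The liver makes red cells before birth, and after birth this task moves to the bone marrow.

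Values are log2 intensities of single probes relative to the 75th percentile of the same array, so a level of 0 means a probe as bright as that percentile. Where the values of single animals are given, they stand in the order +/+_1155, +/+_1156, +/+_1024 and +/+_991 for Rbpj+/+ and -/-_N3, -/-_N5 and -/-_2866 for Rbpj-/-. A change is the mean of the Rbpj-/- animals minus the mean of the Rbpj+/+ animals on this log2 scale, and a gene was called when limma's adjusted p, over 24548 tested probes, was under 0.1. Of the 8 genes, 7 had a tested probe and 2 were called. *Alas1* was higher and *Alas2* lower in Rbpj-/- liver. Over the 18771 genes tested, 34.2% were called, 14.6% higher and 19.6% lower, and the 2 called of 7 were thus no larger share than in liver as a whole. The genotypes did not overlap for the same 2 genes, against 36.5% of all tested genes.

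**Figure D1:**
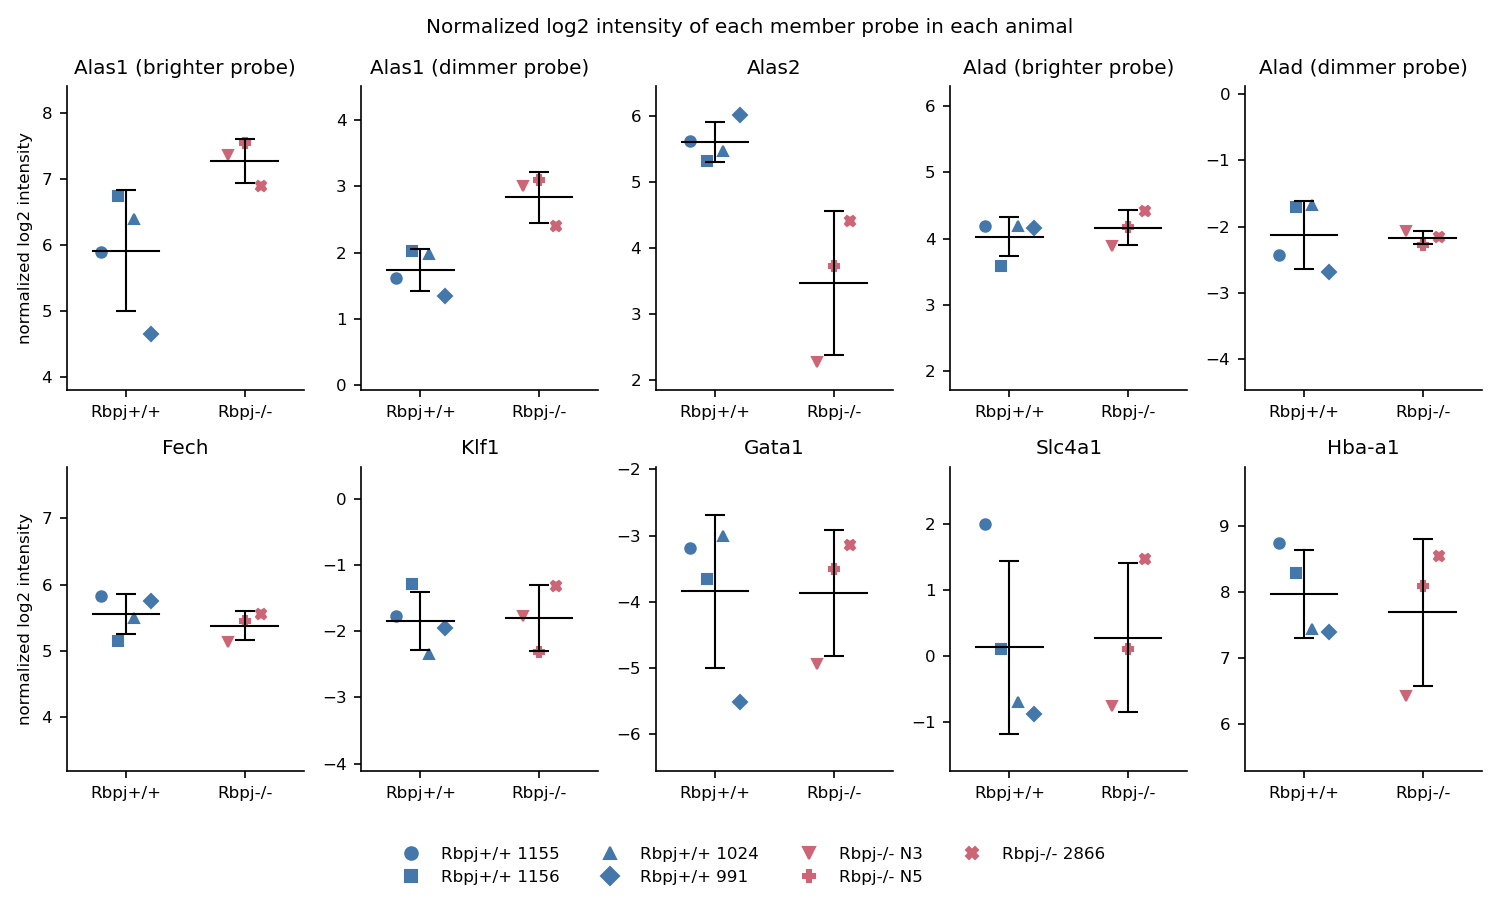
Normalized log2 intensity of the 10 probes of the 8 genes in each animal. Points are animals, horizontal lines are group means and bars are SD (4 Rbpj+/+ animals in blue, 3 Rbpj-/- animals in red), and all vertical axes have the same length in log2 units. The genotypes separate for both *Alas1* probes and for *Alas2*, with animal -/-_N3 lowest for *Alas2* at 2.29, and overlap for the others.

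The arrays shared 1 slide and 1 scan, with the Rbpj+/+ animals on the first row of the slide and the Rbpj-/- animals on the second, so row and genotype cannot be told apart. The 75th percentile of intensity was 57.5 to 103 in Rbpj+/+ and 118 to 143 in Rbpj-/- animals. Arrays +/+_1156 and -/-_N3 stood apart with 61.8% and 64.9% of probes well above background against 41.1% to 47.7% on the other 5. The median change of all tested genes was -0.13, and 42.8% of the called genes were higher, or 54.9% in the log2 values that the authors deposited. The *Rbpj* probe on chromosome 5 was lower in Rbpj-/- animals by a change of -1.13 (SE 0.24, adjusted p = 0.0115 by limma) without overlap, and another probe named *Rbpj*, placed on chromosome 6, had -1.63 (adjusted p = 0.0723) with overlap. Whether either probe lies in the floxed part is not given in the sources used here.

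*Alas2*, which encodes the first enzyme of heme synthesis in red cell precursors, was read by 1 probe at chrX:147004993-147005052 (mm9). Its sequence is shown because the only large fall among the 8 genes rests on it, and the capitals mark the stop codon of the reading frame that is open for the 13 codons before it, with 18 bases of the 3' end after it.
*Alas2* probe: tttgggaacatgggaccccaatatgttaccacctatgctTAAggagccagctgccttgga
The normalized level was 5.62, 5.32, 5.46 and 6.01 in Rbpj+/+ animals. It was 2.29, 3.74 and 4.41 in Rbpj-/- animals. Every Rbpj-/- animal was below every Rbpj+/+ animal, and the Rbpj-/- animals spread more widely (SD 1.09, n = 3) than the Rbpj+/+ animals (SD 0.30, n = 4). The change was -2.13 (SE 0.45, 95% interval -3.14 to -1.11), a level 4.36-fold lower, with an adjusted p of 0.0120 by limma. Without -/-_N3, the lowest animal, it was still called, at -1.53, the smallest change among the fits that left out 1 animal. Without both arrays that stood apart, it was -1.62 (adjusted p = 0.0240 by limma). In RNA of a whole organ, fewer cells of a type and less RNA per cell cannot be told apart.

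*Alas1*, the enzyme of the same step in hepatocytes and most other cells, was read by 2 probes on chromosome 9, at chr9:106136284-106136343 and chr9:106135796-106135855 (mm9), and both were higher in Rbpj-/- liver. The probe with the higher mean signal had levels of 5.89, 6.73, 6.38 and 4.66 in Rbpj+/+ animals. Its levels were 7.36, 7.55 and 6.90 in Rbpj-/- animals. The genotypes did not overlap, but Rbpj-/- animal -/-_2866 lay only a little above Rbpj+/+ animal +/+_1156, and Rbpj+/+ animal +/+_991 was the lowest by far. The change was 1.35 (SE 0.45, 95% interval 0.33 to 2.37), a level 2.55-fold higher, with an adjusted p of 0.0599 by limma. This call was lost without Rbpj+/+ animal +/+_1155 (adjusted p = 0.101), without -/-_N3 (0.144) or without -/-_N5 (0.181).

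The dimmer *Alas1* probe gave a tighter result. Its levels were 1.61, 2.02, 1.98 and 1.34 in Rbpj+/+ animals and 3.01, 3.09 and 2.40 in Rbpj-/- animals. The 7 animals fell in the same order as with the brighter probe. The change was 1.10 (SE 0.26, 95% interval 0.52 to 1.68), a level 2.14-fold higher, with an adjusted p of 0.0179 by limma. It stayed under the threshold whichever animal was left out, with adjusted p of 0.0175 to 0.0796. Without the arrays +/+_1156 and -/-_N3 the changes of the brighter and dimmer probe were 1.58 and 1.10 (adjusted p = 0.0884 and 0.0574 by limma).

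The changes of the paired enzymes of the first step went in opposite directions. The *Alas2* level minus the *Alas1* level, taken within each animal, was -0.27, -1.42, -0.92 and 1.36 in Rbpj+/+ animals and -5.07, -3.81 and -2.48 in Rbpj-/- animals. The genotypes did not overlap. The difference between the changes was -3.48 (SE 0.96), with an exact two-sided permutation p of 0.0286, the smallest that the 35 splits of the 7 animals allow. *Alas1* was higher and *Alas2* lower in every Rbpj-/- animal than in every Rbpj+/+ animal. The separation on their difference followed from those results, and the test adds no support of its own.

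**Figure D2:**
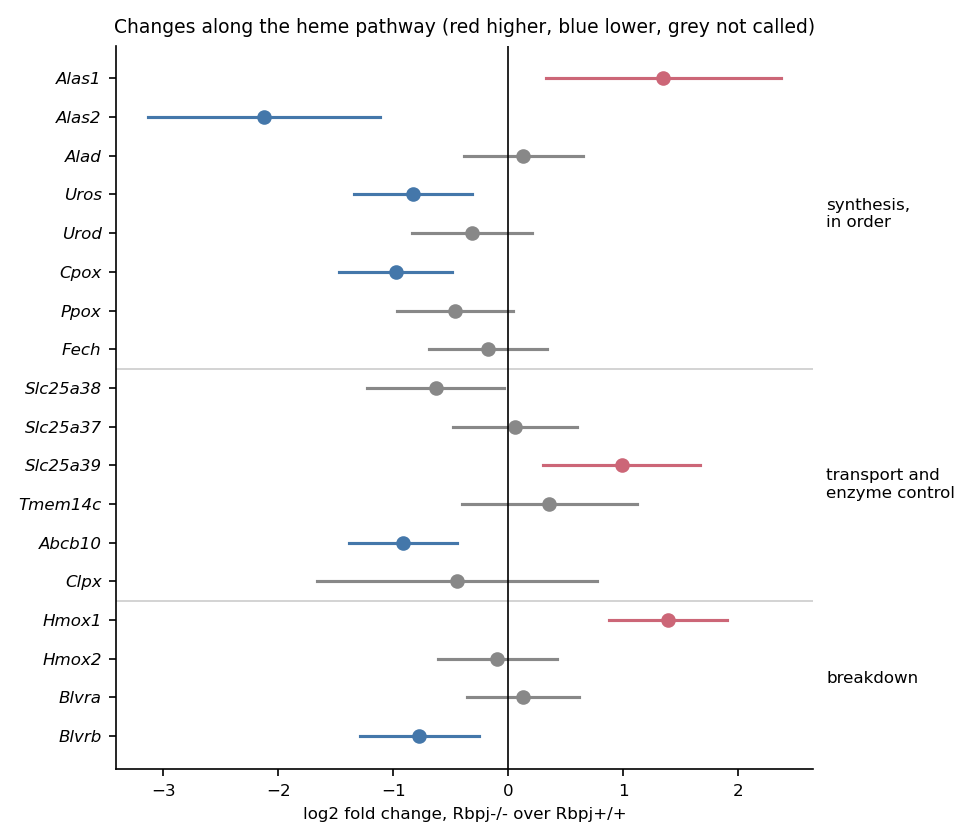
Log2 fold change (Rbpj-/- over Rbpj+/+, n = 3 and 4) with its 95% interval for enzymes of heme synthesis in the order of their steps, for carriers and an enzyme regulator, and for enzymes of heme breakdown. *Alas1*, *Slc25a39* and *Hmox1* were called higher (red), *Alas2*, *Uros*, *Cpox*, *Abcb10* and *Blvrb* lower (blue), and the others were not called (grey).

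The next and the last enzyme of the chain were not called. *Alad*, the enzyme of the second step, was read by 2 probes on chromosome 4, at chr4:62172559-62172618 and chr4:62169463-62169522 (mm9). The brighter one had levels of 4.19, 3.59, 4.19 and 4.15 in Rbpj+/+ animals and 3.89, 4.18 and 4.42 in Rbpj-/- animals. The Rbpj+/+ animals other than +/+_1156 lay close together, and the Rbpj-/- animals fell on both sides of them. The change was 0.13 (SE 0.23, 95% interval -0.39 to 0.65, adjusted p = 0.699 by limma). The dimmer probe ranged from -2.68 to -1.67 in Rbpj+/+ and from -2.27 to -2.07 in Rbpj-/- animals, with a change of -0.05 (adjusted p = 0.919 by limma).

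*Fech*, which encodes the ferrochelatase of the last step, had levels of 5.82, 5.15, 5.50 and 5.75 in Rbpj+/+ animals. Its levels in Rbpj-/- animals were 5.13, 5.45 and 5.55. The animals of both genotypes lay within 0.69 of each other, the narrowest range of the 10 probes. The change of -0.17 (SE 0.23, 95% interval -0.69 to 0.34, adjusted p = 0.601 by limma) was smaller than the spread between animals. The interval leaves room for a fall of the size of 0.69 but not for one of the size seen for *Alas2*.

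The steps between *Alad* and *Fech* and the carriers around them were read by 11 other genes of heme synthesis, all tested. Of these, 1 was called higher and 3 lower, with a median change of -0.44 beside -0.13 for all tested genes. The share called, 36.4%, was near the 34.2% of all tested genes. With 1 animal left out this median ran from -0.66 to -0.16, and the last, without -/-_N3, stood beside -0.09 for all genes. *Cpox*, which encodes coproporphyrinogen oxidase, fell from a mean of 4.86 (SD 0.31, n = 4) to 3.88 (SD 0.13, n = 3), a change of -0.98 (adjusted p = 0.0145 by limma). *Abcb10*, a transporter of the inner mitochondrial membrane, fell by 0.91 (adjusted p = 0.0157) and *Uros*, which encodes uroporphyrinogen III synthase, fell by 0.83 (adjusted p = 0.0319, limma), a call lost without -/-_N5. *Slc25a39*, a mitochondrial carrier for glutathione, rose by 0.99 (adjusted p = 0.0453 by limma), a call lost without +/+_1024, -/-_N5 or -/-_2866. The genotypes did not overlap for these 4 genes and for *Slc25a38*, which was not called (-0.63, adjusted p = 0.113 by limma). That is 5 of the 11 genes, beside 36.5% of all tested genes. *Urod* and *Ppox*, enzymes of later steps, were not called, with changes of -0.31 and -0.46.

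The *Alas1* regulator list held 6 genes for factors known to act on *Alas1* in liver, all tested, of which 1 was lower and none higher. Among all tested genes 19.6% were lower and 14.6% higher. The lower one was *Rxra*, the partner of several nuclear receptors, with a change of -0.53 (adjusted p = 0.0540 by limma), which held in 9 of 17 alternatives, while its other probe had -0.13 (adjusted p = 0.734). *Ppargc1a*, a coactivator of *Alas1* in fasting, had 1.38 (SD 0.66) in Rbpj+/+ and 2.06 (SD 0.31) in Rbpj-/- animals on its brighter probe, a change of 0.69 (adjusted p = 0.187). The dimmer *Ppargc1a* probe had a change of 1.05 and was called (adjusted p = 0.0559 by limma). The median of the list, -0.12, lay next to that of all tested genes.

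Genes of heme breakdown and scavenging moved both ways. Of 9 tested, 2 were higher and 2 lower, with a median change of -0.01. The share called was 44.4%, beside 34.2% of all tested genes. *Cd163* passed the detection filter only through Rbpj-/- arrays, and the median over the other 8 genes was -0.05. *Hmox1*, the inducible heme oxygenase that opens the heme ring, had levels of 2.94, 2.67, 2.29 and 2.63 in Rbpj+/+ animals and 3.83, 4.36 and 3.88 in Rbpj-/- animals. All Rbpj-/- animals were above all Rbpj+/+ animals, and the change was 1.39 (SE 0.23, adjusted p = 0.00453 by limma). A second, dimmer *Hmox1* probe did not show it, with a change of -0.30 (adjusted p = 0.297). *Slc48a1*, a heme transporter of endosomes and lysosomes, rose by 0.93 (adjusted p = 0.0330 by limma), a call lost without -/-_N5. *Blvrb*, a biliverdin reductase, fell by 0.77 (adjusted p = 0.0409) and *Hp*, which encodes the plasma protein that binds free hemoglobin, by 0.58 (adjusted p = 0.0501, limma). The *Blvrb* call was lost without +/+_991, -/-_N3 or -/-_2866. The *Hp* call was lost without +/+_1024, +/+_991, -/-_N3 or -/-_N5, and its change turned to 0.05 in the log2 values that the authors deposited.

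Among the transcription factors, *Klf1* was tested and *Gata1* was not. *Klf1*, read at chr8:87428881-87428940 (mm9), had levels of -1.77, -1.29, -2.35 and -1.95 in Rbpj+/+ animals. Its levels in Rbpj-/- animals were -1.76, -2.32 and -1.32. The genotypes covered the same range, and the change was 0.04 (SE 0.31, 95% interval -0.67 to 0.75, adjusted p = 0.936 by limma). *Gata1*, read at chrX:7536392-7536451 (mm9), was well above background on 2 of 4 Rbpj+/+ and 2 of 3 Rbpj-/- arrays. Its measured signals were -3.18, -3.65, -3.01 and -5.52 in Rbpj+/+ and -4.94, -3.51 and -3.14 in Rbpj-/- animals, so no fold change is given.

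The other erythroid regulators were read by 14 genes, 10 of them tested. Of these, 3 passed the detection filter only through Rbpj-/- arrays. Of the 7 above background on every array, 2 were called higher and 2 lower, beside 14.6% and 19.6% of all tested genes. The median change of these 7 was 0.34. The median over all 10 was 0.60, which became -0.02 with normexp background correction. *Tfrc*, the receptor through which cells take up transferrin-bound iron, had levels of -0.99, -2.12, -0.53 and -1.56 in Rbpj+/+ animals and 1.26, 2.32 and 0.69 in Rbpj-/- animals. Each Rbpj-/- animal was above each Rbpj+/+ animal, and the change was 2.73 (SE 0.46, adjusted p = 0.00510 by limma). Dividing cells of many types carry this receptor. A second *Tfrc* probe rose by 1.64 (adjusted p = 0.0263), and the dimmest one was well above background on 0 of 4 Rbpj+/+ and 3 of 3 Rbpj-/- arrays. *Lmo2*, a bridging protein of the GATA1 complex, rose by 0.66 (adjusted p = 0.0429 by limma), a call lost without -/-_2866. *Nfe2*, a factor of megakaryocytes and red cell precursors, and *Gata2*, a factor of blood stem cells and mast cells, entered the test only through the group where they are high, with 2 and 3 of 4 Rbpj+/+ arrays above background. Their measured means were -1.999 and -2.84 in Rbpj+/+ and -0.19 and -1.92 in Rbpj-/- animals, and the difference turned to -0.04 for *Gata2* with normexp. The 2 lower genes were *Tfr2*, a second transferrin receptor that hepatocytes make, at -0.58, and *Zfpm1*, the partner of GATA1, at -0.52 (adjusted p = 0.0655 and 0.0737, limma), calls that held in 8 and 5 of 17 alternatives. The other tested *Zfpm1* probes were not called, with -0.40 on a bright one and 0.50 on a dim one (adjusted p = 0.196 and 0.238, limma). Neither *Myb* nor *Gfi1b*, factors of early red cell precursors, had a probe that could be tested.

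The 2 genes of mature red cells varied widely within both genotypes and were not called. *Slc4a1*, which encodes the anion exchanger band 3, was read at chr11:102210256-102210315 (mm9). Its levels were 1.996, 0.11, -0.69 and -0.88 in Rbpj+/+ animals and -0.76, 0.12 and 1.47 in Rbpj-/- animals. Both genotypes covered nearly the same range. The change was 0.14 (SE 0.73, 95% interval -1.51 to 1.79, adjusted p = 0.903 by limma). The interval leaves room for a change of either sign within those bounds.

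*Hba-a1* was read at chr11:32183955-32184014 (mm9) by a probe within coding sequence, in which all 20 codons of the first frame are open. The sequence is shown because it is shared: the array's annotation of this probe lists transcripts of both *Hba-a1* and *Hba-a2*, which encode the same alpha chain, so the 2 genes cannot be told apart by it.
*Hba-a1* probe: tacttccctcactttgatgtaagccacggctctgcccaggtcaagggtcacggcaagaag
Its levels were 8.74, 8.29, 7.45 and 7.39 in Rbpj+/+ animals. They were 6.43, 8.09 and 8.55 in Rbpj-/- animals. Animal -/-_N3 was the lowest of all animals, and -/-_N5 and -/-_2866 lay within the Rbpj+/+ range. The change was -0.28 (SE 0.52, 95% interval -1.46 to 0.91, adjusted p = 0.726 by limma), and it was positive, at 0.35, without -/-_N3.

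The list of other globin genes also holds *Ahsp*, the chaperone of the free alpha chain, and 10 of its genes were on the array. Of these, 4 globin genes and *Ahsp*, which was above background on 2 of 4 Rbpj+/+ arrays, were tested. A single globin gene was called lower and none higher, a share of 20% beside 34.2% of all tested genes. The median change of the 5, -0.01, turned positive in 10 of 18 alternatives. *Hbb-bt*, an adult beta chain gene of this strain, had levels of 8.50, 7.59, 6.82 and 6.92 in Rbpj+/+ animals and 6.32, 7.56 and 8.16 in Rbpj-/- animals, with a change of -0.11 (adjusted p = 0.894 by limma). The animals thus ranked nearly as they did for *Hba-a1*. The called gene was *Hba-a2*, which fell from 9.45 (SD 0.07, n = 4) to 8.73 (SD 0.35, n = 3), by 0.72 (adjusted p = 0.0378 by limma). The *Hba-a2* probe is also annotated to both alpha genes, yet it did not follow the *Hba-a1* probe among Rbpj+/+ animals, where it stayed between 9.37 and 9.53. Its call depended on the scaling. It was lost with quantile normalization, with normexp and in the log2 values that the authors deposited. It was also lost without the filter for dim probes and without -/-_N3. Over the alternatives the change of *Hba-a2* ran from -0.86 to -0.17 and its adjusted p from 0.0222 to 0.560 (limma). The embryonic globin genes *Hba-x*, *Hbb-y* and *Hbb-bh1* were not tested.

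The level of *Hba-a1* was set against 5 other genes across the 7 animals, with exact permutation p-values adjusted over the 5 relations. It rose with *Hbb-bt* (Pearson r = 0.966, p = 0.000397, adjusted 0.00198, and Spearman rho = 0.964, p = 0.00278, adjusted 0.0139, exact permutation) and with *Slc4a1* (r = 0.844, p = 0.0145, adjusted 0.0362, and rho = 0.929, p = 0.00675, adjusted 0.0169, exact permutation). Without the 2 animals farthest from the median of *Hba-a1*, +/+_991 and -/-_N3, r was 0.979 and 0.925. The relations with *Klf1* (r = 0.341, raw p = 0.462, rho = 0.321, raw p = 0.498), *Alad* (r = 0.260, raw p = 0.569, rho = 0.571, raw p = 0.200) and *Fech* (r = 0.433, raw p = 0.324, rho = 0.5, raw p = 0.267) did not pass by exact permutation, with adjusted p of 0.333 or more. Arrays +/+_1156 and -/-_N3 are too few for a value of their own. All values of an animal share 1 RNA and 1 array.

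**Figure D3:**
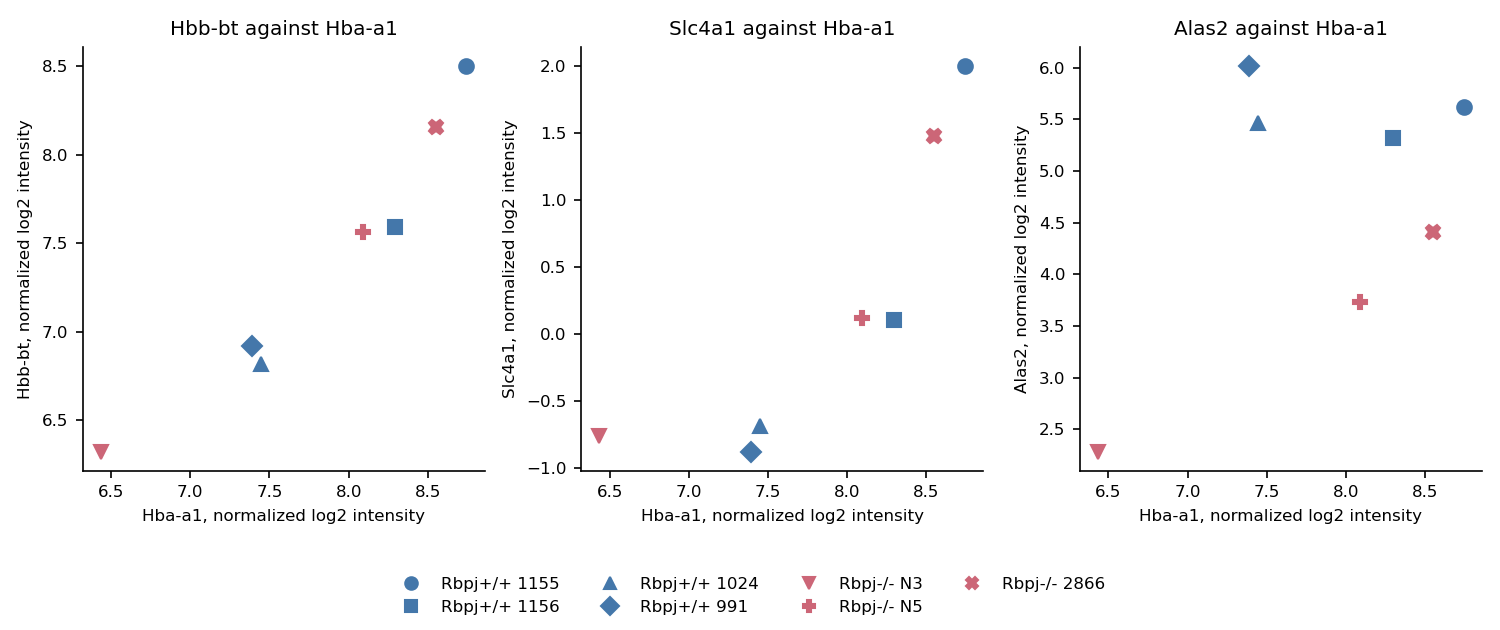
Normalized log2 intensity of *Hbb-bt*, *Slc4a1* and *Alas2* against that of *Hba-a1*, with 1 point per animal (blue Rbpj+/+, red Rbpj-/-). *Hbb-bt* and *Slc4a1* rise with *Hba-a1* through both genotypes (r = 0.966 and 0.844), while the 3 Rbpj-/- animals lie below the Rbpj+/+ animals for *Alas2*.

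*Alas2* did not take this order over the 7 animals, although the 3 Rbpj-/- animals ranked the same way for *Alas2*, *Hba-a1* and *Slc4a1*, with -/-_2866 highest and -/-_N3 lowest. Rbpj-/- animal -/-_2866 had the second highest *Hba-a1* level of the 7 animals but an *Alas2* level of 4.41, below all Rbpj+/+ animals. The *Alas2* level minus the *Hba-a1* level was -3.12, -2.98, -1.98 and -1.38 in Rbpj+/+ animals and -4.15, -4.35 and -4.14 in Rbpj-/- animals. The Rbpj-/- animals lay together below all Rbpj+/+ animals. The *Alas2* change minus the *Hba-a1* change was -1.85 (SE 0.42, exact two-sided permutation p = 0.0286, the smallest possible here). This pair was chosen after the values had been seen.

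Of 21 other red cell genes, 8 were tested, and 4 were lower and none higher, with a median change of -0.31. Over all tested genes 19.6% were lower and 14.6% higher, with a median change of -0.13. The median of the list was -0.12 without -/-_N5, -0.01 without the filter for dim probes and -0.61 over the 7 genes above background on every array. *Tspan33*, a membrane protein of red cell precursors that other cells also make, had levels of 4.61, 4.09, 4.55 and 4.55 in Rbpj+/+ animals and 1.55, 2.03 and 1.86 in Rbpj-/- animals. The gap between the genotypes was wider than the range within either, and the change was -2.64 (SE 0.21, adjusted p = 0.000301 by limma). *Car1*, which encodes a carbonic anhydrase of red cells and gut, fell by 1.49 (adjusted p = 0.00608 by limma), and its dimmer probe was well above background on all 4 Rbpj+/+ and on 0 of 3 Rbpj-/- arrays. *Ermap* and *Icam4*, membrane proteins of red cell precursors, fell by 0.68 and 0.61 (adjusted p = 0.0660 and 0.0696 by limma). These calls were lost in 7 and 10 of 17 alternatives. Of the 4 tested genes that were not called, *Dmtn* had a change of 0.74, *Hemgn* 0.37, *Slc14a1* 0.31 and *Epb41* -0.01. The genotypes overlapped for each of them. *Slc14a1* was well above background on 0 of 4 Rbpj+/+ and 3 of 3 Rbpj-/- arrays. Of the defining red cell genes, *Sptb*, *Ank1* and *Epb42* were each above background on at most 1 array per genotype and *Rhag* on none, so that these markers were at or near background in both genotypes.

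Markers of other cells moved with the genotype. For comparison, 14.6% of all tested genes were higher and 19.6% lower. Of 11 hepatocyte markers 9 were lower, with a median change of -0.73, and their mean level ranged from 8.51 to 9.06 in Rbpj+/+ and from 8.04 to 8.33 in Rbpj-/- animals. This depended on the scaling. Both after quantile normalization and in the log2 values that the authors deposited 2 of the 9, *Apob* and *Ttr*, were called lower, and the list had a median change of -0.10 and -0.09. There the sign of *Fgb* turned. *Cps1*, an enzyme of the urea cycle in hepatocytes, was not called with the scaling used above, with a change of 0.94 (adjusted p = 0.162, limma). It was called higher in both of those settings, and also with normexp and with the percentile over probes detected on all arrays. Without the filter for dim probes *Apob* alone was called. The *Apob* call held in all 17 alternatives with a change of -0.97, while a second, dimmer *Apob* probe had 0.34 (adjusted p = 0.669). The macrophage markers, with 7 of 9 higher and none lower, had mean levels of 3.08 to 3.39 and 4.70 to 4.82, led by *Marco* with a change of 2.93. Macrophages of the liver take up worn red cells and express *Hmox1* and *Slc48a1*. The 6 proliferation markers above background on every array were all higher, with mean levels of -0.83 to 0.91 and 2.13 to 3.12. The other 2, *Top2a* and *Bub1*, were above background on 1 of 4 Rbpj+/+ and 3 of 3 Rbpj-/- arrays. Of the 6 platelet and megakaryocyte markers tested of 11, *Clec1b* (1.74) and *Pf4* (1.28) were higher and none lower, while *Gp9* was not called. Of 10 mast cell and eosinophil markers 2 were tested, with *Hdc* higher (1.53) and *Tpsb2* lower (-0.63). The part of these cell types in the changes of *Alas1*, *Alas2*, *Hmox1* and *Tfrc* was not tested.

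The 250 bases before the start of *Alas1*, *Alas2* and *Hba-a1* are shown because GATA1 and KLF1, whose genes are members, are known to act on the promoters of *Alas2* and *Hba-a1*. The sequences are those of RefSeq (GRCm38.p6), at chr9:106247955-106248204 on the minus strand, chrX:150547167-150547416 on the plus strand and chr11:32283422-32283671 on the plus strand. Capitals mark CACCC letters and GATA letters, searched on both strands. The GATA letters are AGATAA, also with T as the first base or G as the last. For *Alas1*, the first of 2 listed starts is shown.
*Alas1* upstream: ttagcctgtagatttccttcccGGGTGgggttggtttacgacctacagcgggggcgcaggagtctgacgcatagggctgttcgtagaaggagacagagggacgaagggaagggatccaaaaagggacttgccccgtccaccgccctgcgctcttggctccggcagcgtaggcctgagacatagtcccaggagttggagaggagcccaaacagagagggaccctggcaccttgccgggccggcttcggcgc
*Alas2* upstream: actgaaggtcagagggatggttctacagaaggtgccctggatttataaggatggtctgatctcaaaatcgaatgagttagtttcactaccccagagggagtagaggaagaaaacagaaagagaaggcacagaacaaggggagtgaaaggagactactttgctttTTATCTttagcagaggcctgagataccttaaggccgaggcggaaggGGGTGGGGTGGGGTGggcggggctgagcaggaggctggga
*Hba-a1* upstream: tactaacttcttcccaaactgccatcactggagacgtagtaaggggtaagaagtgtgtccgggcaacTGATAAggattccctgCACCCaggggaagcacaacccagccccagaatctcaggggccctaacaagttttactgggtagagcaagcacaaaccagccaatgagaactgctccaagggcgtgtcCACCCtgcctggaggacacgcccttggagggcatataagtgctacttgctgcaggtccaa
The *Alas2* window held 1 GATA match and 3 adjoining CACCC matches, the *Hba-a1* window 1 and 2, and the *Alas1* window 0 and 1. Of 32851 such windows in the table, 26.5% held a GATA match and 52.0% a CACCC match. *Klf1* had 1 match of each kind, and *Gata1* 2 CACCC matches. The 2 *Alad* windows held 0 GATA matches, and 0 and 1 CACCC matches. No window was read for *Fech* and *Slc4a1*. The *Alas2* and *Hba-a1* windows thus hold matches of both kinds, while only *Alas2* was called. A match is a run of letters and not a measured site.

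The genes whose levels were most like those of *Alas2* over the 7 animals, by Pearson r on their brightest tested probes, were *Bard1* (r = 0.995), *Vcan* (0.991), *Sirt3* (0.991) and *Gclc* (0.990), beside a transcript without a gene name (0.992). After the genotype means were taken off, these r ranged from 0.962 to 0.980. For *Alas1*, they were *Sgms1* (0.993), *Efnb2* (0.980), *Tnip2* (0.979) and *Pfkfb2* (0.977), beside another unnamed transcript (0.983). None of them belongs to the lists above. They are the highest of 18771 genes and are given as a description. Among the members, *Alas2* had r = 0.497 with *Hba-a1*, 0.171 with *Slc4a1* and -0.787 with *Alas1*. After the genotype means were taken off, these were 0.683, 0.456 and -0.450.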

How the data were processed

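Whole liver RNA of 7 mice was labelled with Cy3 and hybridised to 1-colour mouse arrays, 1 array per animal. The deposited intensity values are signals of single spots from Agilent Feature Extraction 10.7.3.1, with background and trend removed by the authors and no scaling of arrays to each other. The deposited spot quality marks, which are 0 or 1, were used as filters. In the series matrix, the authors deposited log2 values. Across probes, these correlate at r of 0.9997 or more with log2 intensities after quantile normalization and centring of each probe on its median. The methods describe another step, a shift by the 75th percentile and then to a median baseline in R. The deposited log2 values served as an alternative only.

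From these intensities, control probes and 1186 non-uniform or population-outlier spots were dropped. No spot was saturated. Log2 values of duplicate spots were averaged, then scaled by subtracting the array's 75th percentile. Tested probes had to be positive, significant and well above background throughout 1 or both genotypes. The comparison used limma 3.58.1 (R 4.3.3), which stands in for the shrinkage t of the methods, with Benjamini-Hochberg adjustment over 24548 probes and a threshold of 0.1. A gene was read by its tested probe of highest mean signal. Intervals are at 95%. The number of arrays limits the precision. In simulated data, 136 of 200 probes changed by 1.5 among 24512 were recovered, with 19 false calls, and 0 probes were called with no change. Only those 200 probes were changed there, all upward, while 8241 of the 24548 tested probes were called in the data. The adjusted p depends on that share, so the recovery does not give the power of this comparison.

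Alternatives were quantile normalization, the percentile over probes detected on all arrays, normexp with an offset of 50, detection on all 7 arrays, dim probes not filtered, outlier spots retained, limma-trend, array weights, the series matrix, the mean of a gene's probes, a threshold of 0.05, and each animal left out. Added after seeing the data were the 5 arrays without +/+_1156 and -/-_N3, and the test of *Alas2* against *Hba-a1*. The text names all members, at most 4 called genes of each list by size of change, and the 5 genes most like *Alas1* and *Alas2*. Others were added after their values were seen. Some genes of the lists are not reported here by name. The members and lists were chosen with earlier results of these data known. All 8 members were matched by accession to RefSeq symbols. Probe coordinates come from the array annotation (mm9). Python 3.11.15, numpy 2.4.6, pandas 2.3.3, scipy 1.17.1 and matplotlib 3.10.9 were used.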

Additional observations from a re-analysis of the deposited data

Results flagged for a closer look

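The brighter *Alad* probe was low in 1 of the 4 Rbpj+/+ animals, +/+_1156, at 3.59, while the other 3 lay between 4.15 and 4.19. The gap to the nearest animal made up 0.934 of the range of the group, above Dixon's critical value at 95%. About 1 in 20 groups passes this value by chance. Array +/+_1156 is one of the pair with more probes above background, and the part of this in the *Alad* value was not tested.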

How the results depend on the processing

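The called members kept their signs under all alternatives run, and of the called heme and erythroid list genes *Hp* and *Gata2* did not. Of all tested probes, 8241 were called, 2038 without the filter for dim probes, 4673 to 9019 with 1 animal left out (fewest without -/-_N5, 5468 without +/+_1024) and 10296 with array weights. Both called members, *Alas1* and *Alas2*, were called under 14 of 19 alternatives. Without the filter 0 were called (limma, adjusted p = 0.106 for *Alas2* and 0.268 for *Alas1*, whose changes are the same), and the cause was not tested. At a threshold of 0.05 there was 1, *Alas2*, and 1 to 2 with an animal left out. Of the heme and erythroid lists 20 genes were called, *Nfe2* and *Gata2* among them, 4 without the filter, 13 at a threshold of 0.05 and 11 to 19 with an animal left out (11 without -/-_N3 or -/-_N5, 13 without +/+_991 or -/-_2866). The *Alas2* change minus the *Alas1* change was -4.13 to -2.84 with an animal left out and -3.20 in the 5 arrays without +/+_1156 and -/-_N3 (exact permutation p = 0.10), designs whose smallest p is above 0.05. The *Alas2* change minus the *Hba-a1* change was -1.79 with normexp (exact permutation p = 0.0571) and -2.10 to -1.52 with an animal left out. Without the filter for dim probes the median change of all genes moved by -0.14. The changes of members that were not called changed sign under some alternatives, *Fech* from -0.31 to 0.08, *Klf1* from -0.27 to 0.30, *Slc4a1* from -0.46 to 0.76, *Hba-a1* from -0.71 to 0.46 and *Alad* from -0.01 to 0.36. The medians of the globin, heme breakdown and *Alas1* regulator lists also changed sign. No paired analysis was possible because the animals' names are not shared between the genotypes.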
